A study of Mus musculus with 9 samples.

Results

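The nuclear genes of the mitochondrial respiratory chain were followed in mouse brain after a transient occlusion of the middle cerebral artery. Members were all genes on the array whose symbol began with Nduf, Sdh, Uqcr, Cox4, Cox5, Cox6, Cox7, Cox8 or Atp5, with symbols taken from each probe's RefSeq accession. This gave 97 genes on the array, of which 96 were tested among 30837 genes and transcripts. The rule used names only and no measured value. All 96 tested members were well above background on all 9 arrays, and Cox8c, a testis form of a complex IV subunit, was not well above background on any array. The 96 comprised 38 complex I subunits, 8 complex I assembly factors (Ndufaf), 4 complex II subunits, 4 complex II assembly factors (Sdhaf), 8 complex III subunits, 17 complex IV subunits and 17 complex V subunits.

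The respiratory chain passes electrons to oxygen across the inner mitochondrial membrane. Complex I takes them from NADH and complex II from succinate, complex III passes them on through cytochrome c, and complex IV reduces oxygen to water. Complexes I, III and IV pump protons, and complex V, the ATP synthase, uses the resulting gradient to make ATP. Neurons depend on this supply for ion pumping and synaptic transmission, and the loss of oxygen and glucose in ischaemia stops it. The mitochondrial genome encodes some core subunits of every complex but II. Those genes fall outside the symbol rule.

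Each group held 3 arrays, 1 per numbered replicate, from adult male C57BL/6 mice of 50 to 53 days. VEGF mice had a 90 min occlusion and received 1 µl of a 10 µg/ml solution of rhVEGF-A165, the recombinant human growth factor, into the lateral ventricle of the right side, 3 h after blood flow returned. MCAO mice had the same occlusion and were given 1 µl of phosphate-buffered saline at that site and time. Sham mice had sham surgery, and the labels do not say whether they were injected. Brains were collected 24 h after reperfusion and homogenised for total RNA, and the labels do not say which part or side of the brain was taken. In such a bulk homogenate, fewer cells of a type and less RNA per cell cannot be told apart.

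Values are log2 signals relative to the 75th percentile of their own array, so that 0 is the level of that percentile. The linear 75th percentile was 723 intensity units on VEGF array 1, 797 on MCAO array 1 and 1250 to 1770 on the other arrays. The share of probes well above background was 73.0% on VEGF array 1, 78.7% on MCAO array 1 and 79.2% to 81.8% on the others. All sham arrays lay on one slide and all MCAO and VEGF arrays on another, so slide, ventricular injection and ischaemia cannot be told apart in the comparisons with sham. VEGF array 1 and MCAO array 1 stood apart. On the first principal component over all genes, with 57.0% of the variance, they scored 141 and 130, while the other VEGF and MCAO arrays scored -8.19 to 15.9 and the sham arrays -104 to -90.0. MCAO array 1 was also the only array whose signals had been computed without the spatial trend correction.

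None of the 96 members passed limma's test with Benjamini-Hochberg adjustment in any of the 3 comparisons. In MCAO against sham, 2.81% of all genes passed, in VEGF against sham 2.42% and in VEGF against MCAO 0.00649%. The lowest adjusted p of a member was 0.0606, for Ndufaf5 in MCAO against sham. The sizes were small and fairly even. In MCAO against sham no member differed by more than 1 log2 unit, that is 2-fold, where 16.1% of all genes did. Among bright genes that share was lower, at 13.3% for a mean log2 signal of 4 to 6 and 4.87% for 6 and over. For 82 of the 96 members the 95% interval lay wholly within a 2-fold difference in either direction, against 40.4% of all genes. The same held for 86 members in VEGF against sham and for 92 in VEGF against MCAO, against 38.0% and 54.2% of all genes. Most genes were dimmer than most members, and these interval shares were not matched for signal level.

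In MCAO against sham, 83 of the 96 members were below 0 and the median difference was -0.20, against 53.2% of all genes below 0 and a median of -0.04. At an unadjusted limma p under 0.05 stood 1 higher member (12.1% of all genes) and 10 lower members (9.28% of all genes). All 3 MCAO arrays lay below all 3 sham arrays for 40 members (20.7% of all genes), and above them for 1 (19.6% of all genes).

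In VEGF against sham, 51 of 96 members were below 0 and the median was -0.02, against -0.12 for all genes. At an unadjusted limma p under 0.05 stood 2 higher members (12% of all genes) and 3 lower members (11.4% of all genes). The VEGF arrays lay wholly above the sham arrays for 6 members (18.2% of all genes) and wholly below for 11 (23.9% of all genes).

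In VEGF against MCAO, 90 of 96 members were above 0, with a median of 0.17 and an interquartile range of 0.12 to 0.22, against 46.6% of all genes above 0 and a median of -0.02. At an unadjusted limma p under 0.05 stood 2 higher members (0.483% of all genes) and no lower one (2.29% of all genes). The groups did not overlap for 19 members, all higher in VEGF (2.33% of all genes), and for no member lower in VEGF (3.48% of all genes). Each pair of these comparisons shares the arrays of a group, so their values are not independent. The shares and medians of all genes given beside the members in these comparisons were not matched for signal level.

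**Figure D1:**
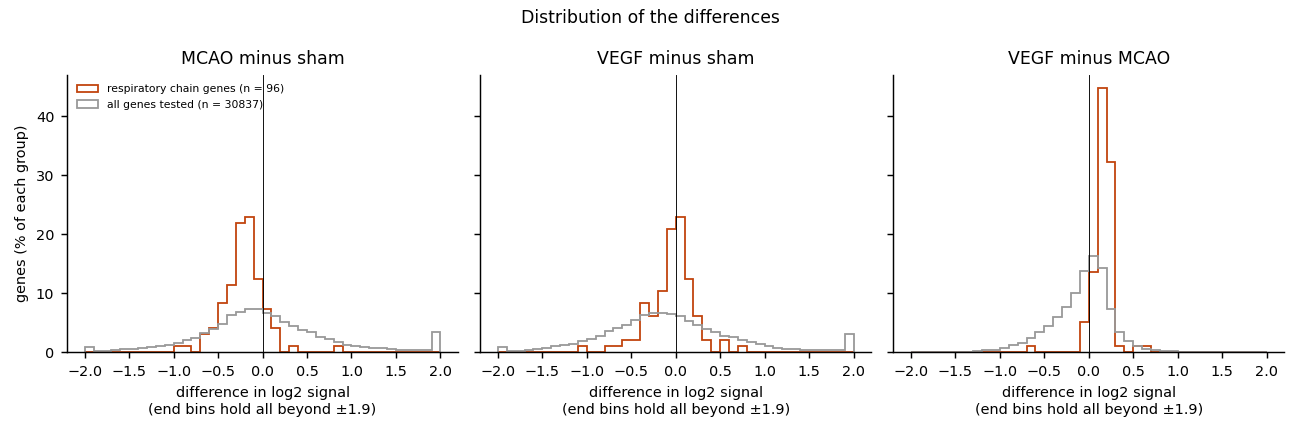
Differences in log2 signal for the 96 respiratory chain genes (orange) and all 30837 genes and transcripts tested (grey), as the percent of each group in bins of 0.1, for MCAO minus sham, VEGF minus sham and VEGF minus MCAO. The members form a narrow peak below 0 in MCAO minus sham (median -0.20), around 0 in VEGF minus sham (median -0.02) and above 0 in VEGF minus MCAO (median 0.17).

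Respiratory chain genes are strongly expressed, and 46 of the 96 had a mean log2 signal of 4 to 6 and another 21 one of 6 and over, where the median of all genes was -1.34. The small shift in VEGF against MCAO went with signal level across all genes. Among all 1831 genes with a mean level of 4 to 6 the median difference was 0.10 and 77.0% were above 0, and among the 636 genes at 6 and over it was 0.14 and 92.8% were above 0. The members at those levels had medians of 0.16 and 0.21. At 2 to 4 the 14 members had a median of 0.06, against 0.07 for all genes. At 0 to 2 the 10 members had 0.17, against 0.04, and under 0 the 5 members had 0.13, against -0.13. In MCAO against sham the members at 4 to 6 and at 6 and over lay below all genes of the same level. At 4 to 6 their median was -0.22, against -0.02 for all genes, and at 6 and over it was -0.15, against 0.34 for all genes. In VEGF against sham the members' median was -0.05 at 4 to 6, against 0.07 for all genes. At 6 and over it was 0.06, against 0.47, and at 2 to 4 it was -0.24, against -0.04. Under 0 it was -0.46, against -0.19, and only at 0 to 2 was it the higher, at 0.09 against -0.06. No test of these gaps was made.

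The scaling also bears on the direction. When all arrays were brought to the same distribution of signals by quantile normalization, the member median was -0.30 in MCAO against sham, -0.22 in VEGF against sham, with 78 of 96 below 0, and 0.08 in VEGF against MCAO, with 82 of 96 above 0. So the members' position below sham in VEGF brains depended on the scaling.

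The members' values on single arrays are drawn in the heat map. On the MCAO arrays, the median deviation of the 96 members from the sham mean was -0.28, -0.21 and -0.18. On the VEGF arrays it was -0.18 on array 1, -0.03 on array 2 and 0.08 on array 3. The sham arrays themselves spread between -0.07 and 0.07. Thus all 3 MCAO arrays lay below the sham arrays, and each VEGF array lay above the MCAO array of the same number.

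**Figure D2:**
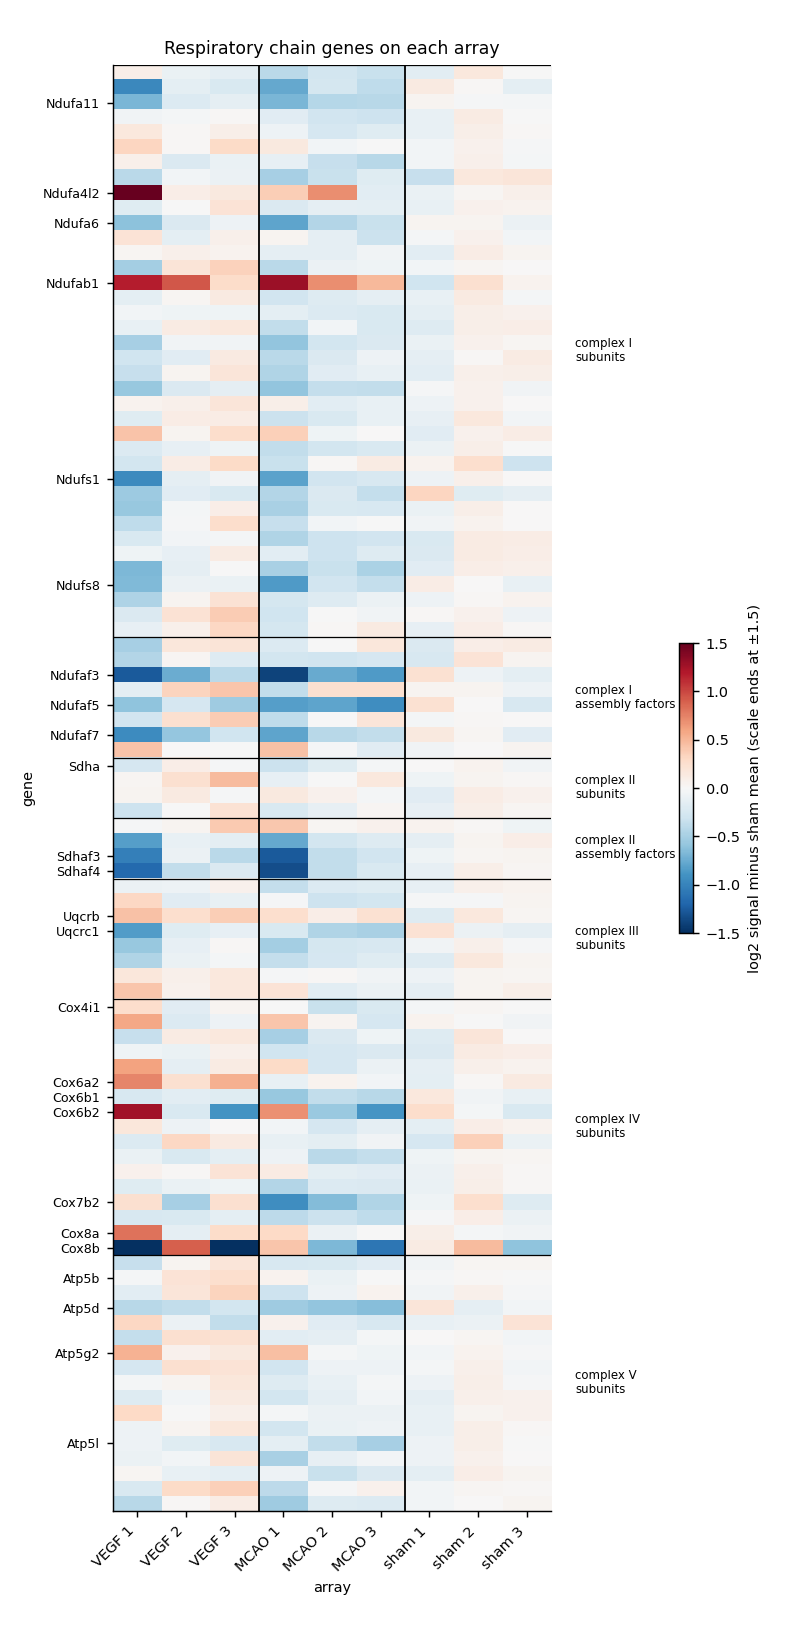
Log2 signal of each of the 96 respiratory chain genes (rows, grouped by complex, some of them named) on each array (columns, VEGF, MCAO and sham), minus the gene's sham mean; colours end at 1.5 either way. Most rows are pale blue in the 3 MCAO columns. Strong colours stand in VEGF array 1 and MCAO array 1, in assembly factors such as Ndufaf3, Sdhaf3 and Sdhaf4 and in Ndufab1. Cox6b2 is above its sham mean on these arrays and below it on the other VEGF and MCAO arrays. The largest deviation of all is that of Cox8b on VEGF array 3, below its sham mean.

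Neuron markers deviated further from sham than respiratory chain genes did on the same arrays. The median of 16 neuron markers was -2.43 on VEGF array 1 and -2.43 on MCAO array 1, and -0.74 to -0.30 on the other VEGF and MCAO arrays, relative to the sham mean. The log2 of their summed linear signals ranged from 7.41 to 9.26 in VEGF, 7.36 to 9.11 in MCAO and 9.45 to 9.50 in sham. All 16 markers were below the sham mean in both comparisons with sham, and none passed the test. The 8 endothelial markers had medians of 2.56 on VEGF array 1 and 2.01 on MCAO array 1, and 0.44 to 0.77 on the other VEGF and MCAO arrays. All 5 neutrophil markers measured passed the test and were higher in VEGF and in MCAO than in sham, with median differences of 6.17 and 6.19. The 8 oligodendrocyte markers were all above 0 in MCAO against sham, with a median difference of 1.22, and all below 0 in VEGF against MCAO, with a median of -0.62. They also spread among the sham arrays, with medians of -0.84, 0.96 and -0.07 relative to the sham mean, and none passed the test. The 8 astrocyte markers were all above 0 in VEGF against MCAO, with a median of 0.25, and had medians of 0.79 on VEGF array 1 and -0.25 on MCAO array 1. None passed in that comparison. The part of cell makeup in the members' values was not tested.

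**Figure D3:**
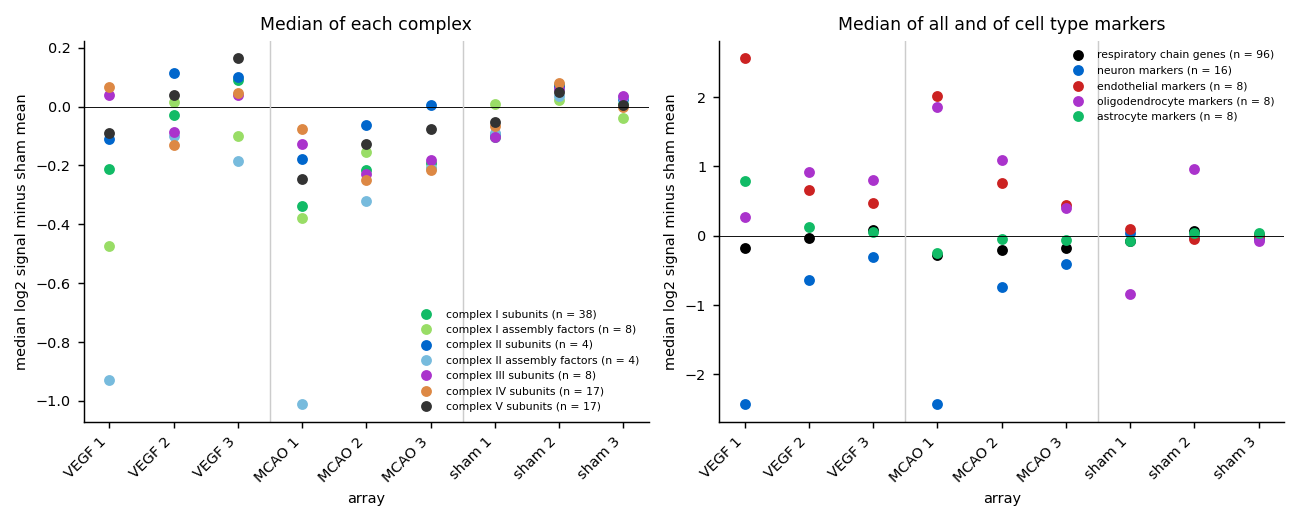
Median log2 signal minus sham mean on each array, left for the genes of each complex and right for all 96 respiratory chain genes beside markers of neurons, endothelial cells, oligodendrocytes and astrocytes (numbers of genes in the legends). The complexes stay within 0.5 of the sham mean except the complex II assembly factors on VEGF array 1 and MCAO array 1 (-0.93 and -1.01), while neuron markers reach -2.43 there.

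Complex I was taken first by its catalytic core. The 6 core subunits described here (Ndufv1, Ndufv2, Ndufs1, Ndufs3, Ndufs7 and Ndufs8) belong to the arm that takes electrons from NADH to ubiquinone. All 6 were below 0 in MCAO against sham, with a median of -0.37, and none passed the test. Ndufs8 had log2 signals of 2.44, 3.00 and 2.93 in MCAO brains, against 3.40, 3.29 and 3.17 in sham brains. The MCAO values lay wholly below the sham values, by -0.50 ± 0.24 (SE; limma adjusted p = 0.263). Ndufs1, the largest core subunit, had 4.22, 5.05 and 5.13 in VEGF brains, 4.38, 4.89 and 4.94 in MCAO brains and 5.11, 5.25 and 5.18 in sham brains.

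For Ndufs1 the low values were those of VEGF array 1 and MCAO array 1, and the difference of -0.44 ± 0.28 in MCAO against sham had a limma adjusted p of 0.375. The 6 core subunits together showed the same split. Their median deviation from sham was -0.61 on VEGF array 1 and -0.49 on MCAO array 1, against -0.06 and 0.04 on the other VEGF arrays and -0.25 and -0.24 on the other MCAO arrays. In VEGF against sham their median was -0.22, with 5 of 6 below 0, and in VEGF against MCAO it was 0.15, with 6 of 6 above 0. The smallest difference of the 6 in MCAO against sham was that of Ndufv2, a subunit of the NADH-binding arm, at -0.12 ± 0.21.

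Over all 38 complex I subunits, 34 were below 0 in MCAO against sham, with a median of -0.22. The MCAO values lay wholly below the sham values for 20 of these subunits (20.7% of all genes). The lowest were accessory subunits, which surround the core. Ndufa6, whose protein binds the acyl carrier protein, had 3.96, 4.31 and 4.41 in MCAO brains, against 4.79, 4.79 and 4.65 in sham brains, a difference of -0.52 ± 0.21 (limma adjusted p = 0.208). Ndufa11, a membrane-arm subunit, had 2.97, 3.23 and 3.23 in MCAO brains, against 3.70, 3.64 and 3.63 in sham brains, a difference of -0.51 ± 0.20 (limma adjusted p = 0.200). For both genes the groups did not overlap.

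Ndufab1 went the other way. It encodes the mitochondrial acyl carrier protein, which also serves mitochondrial fatty acid synthesis and iron-sulphur cluster assembly. Its log2 signals were -0.69, -0.93 and -1.59 in VEGF brains, -0.58, -1.16 and -1.37 in MCAO brains and -2.16, -1.62 and -1.81 in sham brains. Every VEGF and MCAO value lay above every sham value, and it was the only member of the 96 whose MCAO values were wholly above the sham values. The difference was 0.79 ± 0.31 in VEGF against sham and 0.83 ± 0.31 in MCAO against sham (limma adjusted p = 0.180 and 0.182). It is measured here by a single probe whose signal is below the 75th percentile on every array.

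Ndufa4 and Ndufa4l2 encode related proteins, and the Ndufa4 protein has been assigned to complex IV since it was named. Both genes are counted here, by symbol, among the complex I subunits and not among those of complex IV. Ndufa4l2, which is induced by hypoxia in other settings, had 1.32, -0.09 and -0.04 in VEGF brains, 0.18, 0.50 and -0.34 in MCAO brains and -0.29, -0.16 and -0.11 in sham brains. VEGF array 1 alone set its difference of 0.59 ± 0.39 in VEGF against sham (limma adjusted p = 0.365), since the other VEGF arrays lay 0.10 and 0.14 above the sham mean. Ndufa4 was at -0.34 ± 0.22 in MCAO against sham (limma adjusted p = 0.382), and its groups overlapped.

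The complex I assembly factors held the lowest members of the whole set in MCAO against sham. These proteins help build the complex and are not part of it. Ndufaf5, which modifies an arginine of the Ndufs7 subunit, had log2 signals of -0.35, 0 and -0.28 in VEGF brains, -0.57, -0.54 and -0.68 in MCAO brains and 0.49, 0.26 and 0.01 in sham brains. The 3 groups did not overlap, with VEGF between MCAO and sham. The difference was -0.85 ± 0.19 in MCAO against sham (95% interval -1.29 to -0.40, limma adjusted p = 0.0606) and -0.46 ± 0.19 in VEGF against sham (limma adjusted p = 0.201). In VEGF against MCAO it was 0.39 ± 0.19 (limma adjusted p = 1.0). A second, dimmer Ndufaf5 probe gave -0.30 ± 0.41 in MCAO against sham.

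Ndufaf3, an early assembly factor, had 1.15, 1.66 and 2.00 in VEGF brains, 1.01, 1.65 and 1.55 in MCAO brains and 2.63, 2.32 and 2.25 in sham brains. Both occluded groups lay wholly below sham, by -0.80 ± 0.28 in VEGF and -0.996 ± 0.28 in MCAO (limma adjusted p = 0.150 and 0.0985). Ndufaf7, a methyltransferase of complex I assembly, had 2.04, 2.41 and 2.69 in VEGF brains, 2.19, 2.57 and 2.62 in MCAO brains and 3.14, 3.01 and 2.81 in sham brains. It too did not overlap with sham, at -0.61 ± 0.23 in VEGF and -0.53 ± 0.23 in MCAO (limma adjusted p = 0.171 and 0.229). The other 5 factors were between -0.28 and 0.09 in MCAO against sham, and the median of the 8 was -0.17, against -0.22 for the complex I subunits.

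**Figure D4:**
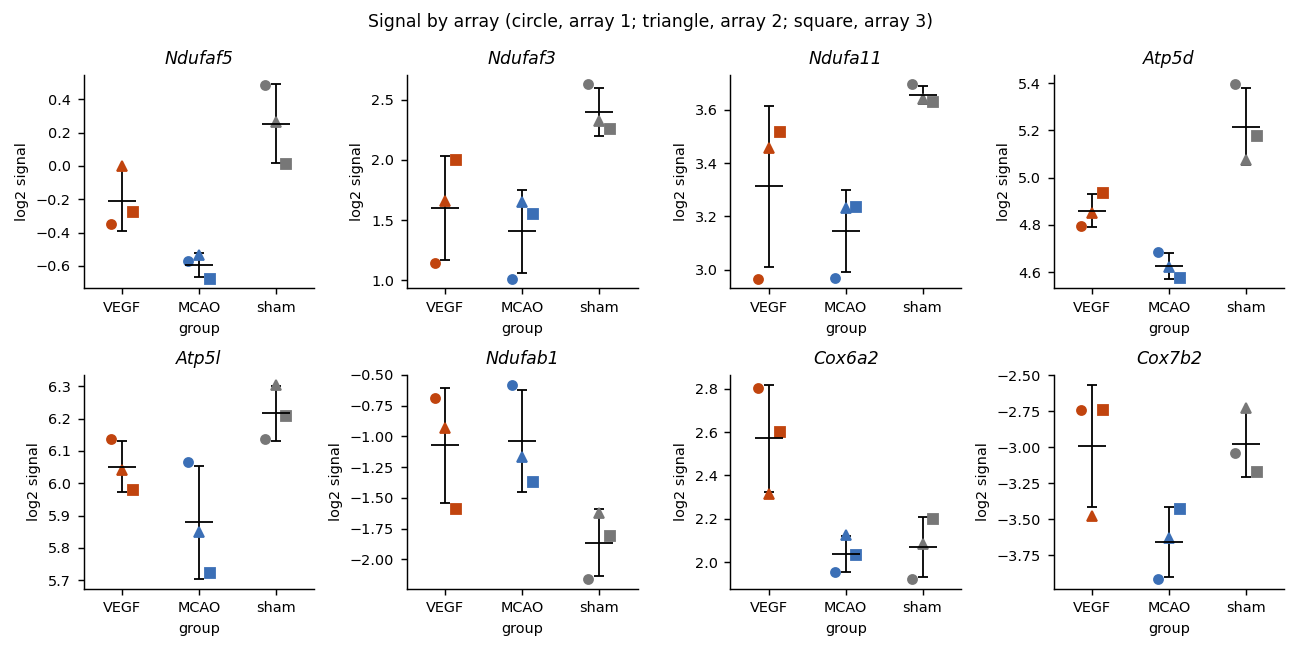
Log2 signal of 8 respiratory chain genes on each array, by group (VEGF, MCAO, sham), with the mean and SD of 3 arrays as black bars and the array number by symbol. Ndufaf5, Ndufaf3, Ndufa11 and Atp5d have MCAO values wholly below the sham values, Ndufab1 has them wholly above, and Cox6a2 has VEGF values wholly above both other groups.

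Complex II differed in its parts. Its 4 subunits are all nuclear. Sdha and Sdhb form the catalytic arm that oxidises succinate, and Sdhc and Sdhd anchor it in the membrane. Their differences in MCAO against sham were -0.18, 0.01, 0.06 and -0.11 for Sdha, Sdhb, Sdhc and Sdhd, each with a SE of 0.17 to 0.20, and the groups overlapped for all 4. In VEGF against sham they were between -0.06 and 0.25. For Sdhb the 2 probes had opposite signs in MCAO against sham, with a gap of 0.42.

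The complex II assembly factors Sdhaf2, which helps attach the flavin to Sdha, Sdhaf3 and Sdhaf4 had larger negative differences than the subunits. Sdhaf1, the fourth of the list, was above 0, at 0.14 ± 0.20 in VEGF and 0.17 ± 0.20 in MCAO, each against sham. Sdhaf4 had 1.50, 2.30 and 2.45 in VEGF brains, 1.35, 2.31 and 2.44 in MCAO brains and 2.56, 2.77 and 2.70 in sham brains. Sdhaf3 had -1.78, -0.85 and -1.16 in VEGF brains, -2.02, -1.13 and -1.05 in MCAO brains and -0.82, -0.73 and -0.72 in sham brains. In both genes all VEGF and MCAO values lay below sham, and those of VEGF array 1 and MCAO array 1 were far below the rest.

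The differences in MCAO against sham were -0.64 for Sdhaf4, -0.64 for Sdhaf3 and -0.41 for Sdhaf2, with limma adjusted p-values of 0.314, 0.286 and 0.373. Without VEGF array 1 and MCAO array 1 the Sdhaf list's median in MCAO against sham was -0.27, against -0.52 with them.

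Of the nuclear core of complex III, the symbol rule covers Uqcrc1, Uqcrc2 and the Rieske iron-sulphur protein Uqcrfs1. It also covers small subunits around that core. Uqcrc1 had 3.36, 4.01 and 4.07 in VEGF brains, 3.96, 3.74 and 3.70 in MCAO brains and 4.41, 4.11 and 4.05 in sham brains. The MCAO values were wholly below the sham values and the VEGF values overlapped with them. The differences in MCAO against sham were -0.39 ± 0.24 for Uqcrc1, -0.34 ± 0.20 for Uqcrc2 and -0.26 ± 0.19 for Uqcrfs1, with limma adjusted p-values of 0.359, 0.357 and 0.443. Cyc1, the gene of cytochrome c1, falls outside the symbol rule. It was at -0.39 ± 0.19 in MCAO against sham (limma adjusted p = 0.264), with VEGF and MCAO values wholly below sham.

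The small ubiquinone-binding subunit Uqcrb was on the other side of sham. It had 5.26, 5.085 and 5.21 in VEGF brains, 5.082, 4.93 and 5.06 in MCAO brains and 4.64, 4.99 and 4.86 in sham brains. The VEGF values lay wholly above both other groups, by 0.35 ± 0.17 over sham (limma adjusted p = 0.247) and 0.16 ± 0.17 over MCAO (limma adjusted p = 1.0). Over the 8 subunits the median was -0.23 in MCAO against sham, with 7 of 8 below 0.

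Complex IV has common subunits and forms that tissues use in their place. The 10 common subunits had a median of -0.26 in MCAO against sham, with 9 of 10 below 0. Cox6b1, which helps join 2 copies of the complex into a dimer, had 3.65, 3.73 and 3.70 in VEGF brains, 3.32, 3.52 and 3.47 in MCAO brains and 4.05, 3.84 and 3.78 in sham brains. The 3 groups did not overlap, and the difference was -0.19 ± 0.17 in VEGF against sham and -0.45 ± 0.17 in MCAO against sham (limma adjusted p = 0.473 and 0.178). Cox4i1, a regulatory subunit that binds ATP, was at -0.19 ± 0.19 in MCAO against sham, Cox5a at -0.26 ± 0.22 and Cox5b at -0.25 ± 0.17, all with overlapping groups. Cox8a was at 0.07 ± 0.26, and its VEGF array 1 value of 8.44 stood above the other 8 arrays, at 7.50 to 7.93. A second Cox8a probe, nearly as bright, had the opposite sign, at -0.21 ± 0.23 in MCAO against sham, and without VEGF array 1 and MCAO array 1 the first probe was at -0.05 ± 0.16.

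Among the tissue forms, Cox4i2 is the lung form, Cox6a2, Cox7a1 and Cox8b are those of heart and skeletal muscle, and Cox6b2 and Cox7b2 are those of testis. Cox6a2 had 2.80, 2.31 and 2.60 in VEGF brains, 1.95, 2.12 and 2.03 in MCAO brains and 1.92, 2.08 and 2.20 in sham brains. The VEGF values lay wholly above both other groups, which overlapped with each other. The difference was 0.50 ± 0.19 in VEGF against sham and 0.54 ± 0.19 in VEGF against MCAO, with limma adjusted p-values of 0.172 and 1.0 and unadjusted p-values of 0.0283 and 0.0215.

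Cox7b2 had -2.74, -3.48 and -2.74 in VEGF brains, -3.91, -3.63 and -3.43 in MCAO brains and -3.04, -2.73 and -3.17 in sham brains. MCAO lay wholly below sham, by -0.68 ± 0.26 (limma adjusted p = 0.192), and VEGF overlapped with both. Its signal was dim, below the 75th percentile on every array. Cox8b had the widest spread of all members, with -2.78, 0.12 and -2.97 in VEGF brains, -0.37, -1.45 and -1.86 in MCAO brains and -0.65, -0.31 and -1.38 in sham brains. Its difference of -1.10 in VEGF against sham was the only one beyond 1 log2 unit among the members, and its 95% interval ran from -2.92 to 0.72. Cox6b2, Cox4i2 and Cox7a1 were at -0.25, 0.07 and -0.10 in MCAO against sham, with overlapping groups. Cox6b2 deviated from the sham mean by 0.69 on MCAO array 1 and by -0.56 and -0.88 on the other MCAO arrays. Without VEGF array 1 and MCAO array 1 it was at -0.72 ± 0.25 (limma adjusted p = 0.0857), and Cox4i2 was at -0.10 ± 0.14.

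Complex V makes ATP in a soluble head, and a membrane ring turns the shaft inside it. Of the head, Atp5a1 and Atp5b form the catalytic barrel, Atp5c1 is the rotating shaft and Atp5d a part of its foot. Atp5b had 7.22, 7.47 and 7.51 in VEGF brains, 7.30, 7.15 and 7.25 in MCAO brains and 7.24, 7.28 and 7.25 in sham brains. It was close to level across the groups, at -0.02 ± 0.17 in MCAO against sham, with a 95% interval of -0.40 to 0.36. Atp5a1 was at -0.22 ± 0.19 and Atp5c1 at -0.11 ± 0.20.

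Atp5d stood apart from its partners. It had 4.80, 4.85 and 4.94 in VEGF brains, 4.68, 4.62 and 4.58 in MCAO brains and 5.40, 5.08 and 5.17 in sham brains. The 3 groups did not overlap, with VEGF in between. The difference was -0.35 ± 0.17 in VEGF against sham and -0.59 ± 0.17 in MCAO against sham (limma adjusted p = 0.237 and 0.106), and 0.23 ± 0.17 in VEGF against MCAO (limma adjusted p = 1.0).

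In the membrane part, Atp5g1, Atp5g2 and Atp5g3 encode the same mature ring protein. They were at -0.10, 0.12 and -0.15 in MCAO against sham, each with a SE of 0.19 to 0.21. Atp5g2 had 6.69, 6.24 and 6.31 in VEGF brains, 6.62, 6.14 and 6.11 in MCAO brains and 6.14, 6.22 and 6.16 in sham brains. On VEGF array 1 and MCAO array 1 it was above all other arrays, where Atp5g1 and Atp5g3 had their lowest values. Atp5l, a subunit of the interface between synthase dimers, was at -0.34 ± 0.17 in MCAO against sham with groups that did not overlap (limma adjusted p = 0.289), and its other 4 probes gave -0.24 to -0.23. Atpif1, the inhibitor of the synthase and no member by its symbol, was at -0.49 ± 0.24 (limma adjusted p = 0.273).

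Set side by side, the subunits of complexes I, III and IV had medians of -0.22, -0.23 and -0.25 in MCAO against sham, complex V -0.15 and complex II -0.05. The assembly factors of complexes I and II had -0.17 and -0.52. In VEGF against sham the medians of complexes I to V were -0.05, 0.01, -0.01, 0.03 and 0.04, and in VEGF against MCAO they were 0.17, 0.10, 0.16, 0.22 and 0.18. No test between complexes was made. When 1 array was left out, the VEGF against sham median of each of the 5 complexes lay below 0 in some cases and above 0 in others. Within the 24 members with several probes the probes differed by a median of 0.22 in MCAO against sham, and in 6 of the 24 they had opposite signs.

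**Figure D5:**
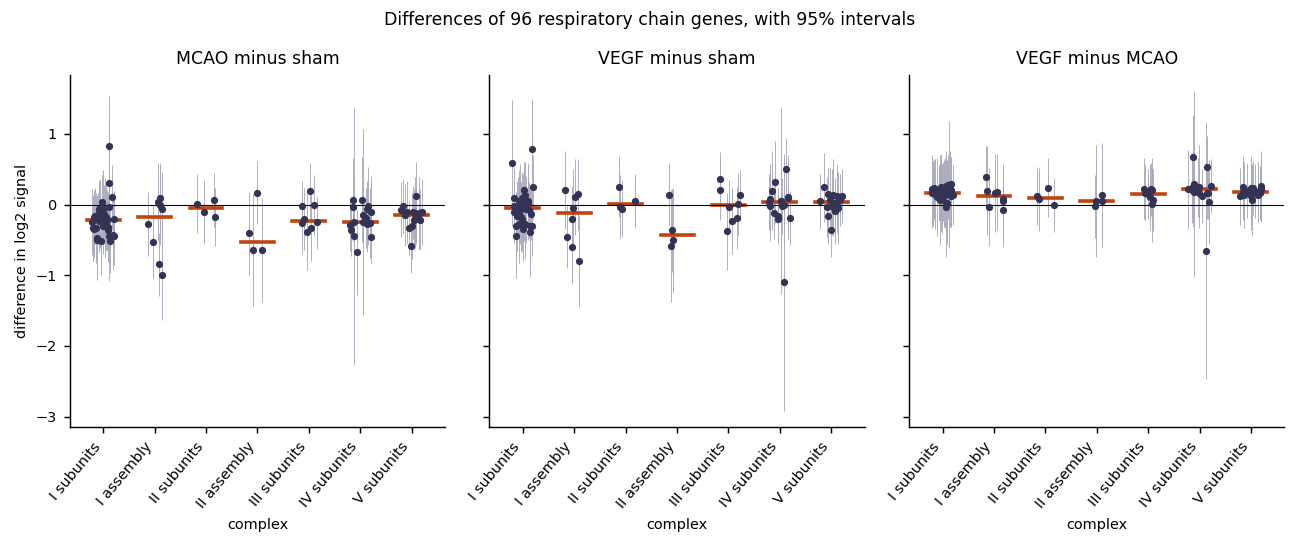
Difference in log2 signal of each of the 96 respiratory chain genes (points, with 95% intervals), by complex, for MCAO minus sham, VEGF minus sham and VEGF minus MCAO; the orange bar is the median of the complex. In MCAO minus sham the medians lie between -0.05 and -0.25 for the subunits of complexes I to V, and all but 11 of the intervals cross 0.

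The count of members that passed the test in MCAO against sham depended on how VEGF array 1 and MCAO array 1 were treated. Without both, 5 of the 96 members passed as lower, where 13% of all genes did. These were Ndufaf5 at -0.86 ± 0.18 (limma adjusted p = 0.0206), Ndufaf3 at -0.80 ± 0.17 (0.0230), Atp5d at -0.62 ± 0.14 (0.0251), Ndufa11 at -0.42 ± 0.11 (0.0382) and Atp5l at -0.43 ± 0.12 (0.0473). The median over the 96 members was then -0.18, and it was 0.02 in VEGF against sham and 0.19 in VEGF against MCAO, with 92 of 96 above 0 in the last.

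With weights that reduce the part of variable arrays, 0.142 for VEGF array 1 and 0.116 for MCAO array 1, 38 members were lower and 1, Ndufab1, was higher in MCAO against sham, where 24.8% of all genes were lower and 16.9% higher. In VEGF against sham 2 members were then lower, Ndufaf3 and Ndufaf7, and Ndufab1 higher, against 12.2% of all genes lower and 10% higher. In VEGF against MCAO no member passed in either fit.

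Many respiratory chain genes share promoter elements, and nuclear respiratory factor 1 (NRF1) is a known regulator of the family. RefSeq windows of 300 bases, 250 before to 50 after the start site in build GRCm38.p6, were found for 80 of the 97 members, as 85 windows. The 9 letters GCGCATGCG, the centre of the NRF1 site, were searched on both strands, where matches on the 2 strands can overlap by all but 1 base. They stood in 10 of the 85 windows (11.8%), against 575 of all 32851 windows (1.75%). The ETS-family letters CCGGAAG stood in 25.9% of the members' windows and 8.86% of all, the YY1 letters AAGATGGC in 12.9% and 2.75%, and TATAAA in 11.8% and 13.6%. The members' windows had a median GC content of 58.7%, against 52.7% for all windows.

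The 10 members with the NRF1 letters had a median of -0.18 in MCAO against sham, against -0.22 for the 70 tested members with a window and without the letters. The 4 lowest of the 10 in MCAO against sham and the highest, Atp5g2, are shown to let the sites be compared in genes with unlike values. Each line is 30 bases, read 5′ to 3′ on the gene's strand, with the matched letters in capitals.
Ndufaf5 (chr2:140170653-140170682, plus strand): gtcccgttgGCGCATGCGCctaatagaaac
Ndufa11 (chr17:56717693-56717722, plus strand): ctgcactgcGCGCATGCGCgcacgccttgt
Uqcrc1 (chr9:108936668-108936697, plus strand): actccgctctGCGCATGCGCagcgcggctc
Atp5l (chr9:44920963-44920992, minus strand): aaccaataaCGCATGCGCatttcccccact
Atp5g2 (chr15:102671069-102671098, minus strand): gctccggccGCGCATGCGCagagccttccc
The same 10 letters, matched on both strands, stood in Ndufaf5 at -0.85 and in Atp5g2 at 0.12. Nrf1 itself, the gene of the factor, was at 0.28 ± 0.22 in MCAO against sham (limma adjusted p = 0.478). For the ETS letters the median in MCAO against sham was -0.14 in 22 members with them and -0.25 in 58 without. For the YY1 letters it was -0.22 in 11 with and -0.22 in 69 without. For TATAAA it was -0.34 in 9 with and -0.20 in 71 without. A relation of these letters to the values was not tested.

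Other mitochondrial and energy genes were read from lists of pathway members, and counts of genes passing the test are over all genes. Of 15 genes of pyruvate dehydrogenase and the citric acid cycle, which feed the chain with NADH and succinate, none passed in any comparison. Their median was -0.35 in MCAO against sham with 14 of 15 below 0, and -0.26 in VEGF against sham with 13 of 15 below 0. Pdha1, a pyruvate dehydrogenase subunit, had 2.27, 2.79 and 3.07 in VEGF brains, 1.95, 2.91 and 2.82 in MCAO brains and 3.77, 3.37 and 3.31 in sham brains, with no overlap between either occluded group and sham. The difference was -0.92 ± 0.32 in MCAO against sham (limma adjusted p = 0.159).

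None of the 33 assembly factors outside the symbol rule, 11 regulators of mitochondrial biogenesis, 8 genes of mitochondrial dynamics and mitophagy, 15 genes of the mitochondrial ribosome and 3 genes of cytochrome c and cytochrome c1 passed in any comparison. Their medians in MCAO against sham were -0.22, -0.16, -0.28, -0.08 and -0.19. Among 9 carriers and porins none passed either. Ucp2, an uncoupling protein also made by immune cells, had log2 signals of 0.94 to 3.63 in VEGF brains, 1.00 to 2.79 in MCAO brains and -1.58 to -0.35 in sham brains. It lay wholly above sham, by 2.60 ± 0.77 in MCAO (limma adjusted p = 0.115).

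Of 17 glycolysis genes, 1 passed. Hk2, a hexokinase that can bind to mitochondria, had 0.27, -0.51 and -0.66 in VEGF brains, -0.36, -0.26 and -0.49 in MCAO brains and -3.35, -2.42 and -2.35 in sham brains. It rose by 2.41 ± 0.33 in VEGF against sham and by 2.34 ± 0.33 in MCAO against sham (limma adjusted p = 0.0106 in MCAO against sham). The median of the 17 genes was -0.19 in VEGF against sham and -0.31 in MCAO against sham, with 13 of 17 below 0 in each.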

How the data were processed

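Cy3-labelled cRNA from 200 ng of total brain RNA was measured on 9 one-colour Agilent arrays, 3 per group. The deposited intensity is Agilent's processed signal, background-subtracted by Agilent Feature Extraction 10.7.1.1 per the submitters' processing notes and the file headers. Spatial trends had been corrected on 8 arrays and not on MCAO array 1, per the file headers. The deposited files also give the trend of each spot as a ratio by which the signal was divided, per the file headers, used here only to recompute signals. The authors' deposited table of log2 values, with quantile-like equal medians of about 6.98 and a scale not given in the sources used here, served as an alternative.

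Control spots and outlier spots were left out and spots of a probe averaged. Log2 intensity was taken minus each array's 75th percentile, the brightest probe stood for a gene, and a gene was tested if well above background on all 3 arrays of a group. This left 30837 genes and transcripts, 17589 of them with a symbol. Symbols came from RefSeq accessions. All 9 arrays entered one fit in limma 3.58.1 (R 4.3.3) with 3 groups, on 8.48 degrees of freedom, adjusted by Benjamini-Hochberg over all genes at 0.05. The fit was tested on simulated data. With 3 arrays against 3, an exact permutation test of a single value could not go below 0.1, so none is given. The labels number the replicates without stating that each array is a separate mouse, so p-values measure the spread between these arrays. The number of arrays limits the precision.

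Of the 97 members, 73 had 1 probe, and 10 share their symbol with a pseudogene in RefSeq, whose RNA the probes may also bind. The members, lists and alternatives were chosen with earlier results of these data known. Members were named if they passed a test, were among the 3 largest differences of their complex in either comparison with sham, or were core subunits, tissue forms or paralogs. Cox6a1, Cox6c, Cox7a2, Cox7a2l, Cox7b and Atp5pb also fall under this rule and are not described above. In MCAO against sham they were between -0.31 (Atp5pb) and -0.02 (Cox6a1). Ndufa6, Ndufa11 and the genes named from other lists were chosen after their values were seen. One gene that the rule names is not reported here by name.

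Same-numbered VEGF and MCAO arrays deviated together (correlations of deviations from group means of 0.587, 0.224 and 0.558). However, MCAO array 2 correlated best with VEGF array 3, and VEGF array 2 with MCAO array 3. Array 1 also stood apart in both groups, so these correlations cannot settle whether the numbers pair the groups. The main fit was unpaired, and a replicate block was an alternative. Same-numbered sham arrays had lower correlations with the VEGF and MCAO arrays (-0.107 to 0.151). Sham array 2 correlated best with VEGF array 2 and sham array 3 with MCAO array 3, while sham array 1 correlated best with VEGF array 3. The alternatives tried were normexp background correction, quantile normalization, the authors' deposited table, no filter on dim probes, the mean of a gene's probes, only the groups compared, a replicate block, age as a covariate, array weights and leaving out each array. Chosen after seeing the data were leaving out VEGF array 1 and MCAO array 1, recomputing signals with the trend correction on all arrays, centring on the median of all genes, the block on VEGF and MCAO arrays alone, and weights fitted gene by gene, since the default estimate did not converge.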

Additional observations from a re-analysis of the deposited data

How the results depend on the processing

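No member passed the test in VEGF against MCAO under any alternative run, and none in VEGF against sham except 3 with array weights. In MCAO against sham, 1 member passed with quantile normalization, the authors' deposited table, age as a covariate or median centring, 39 with array weights, 5 without VEGF array 1 and MCAO array 1, and 0 to 2 when 1 array was left out, the 2 being Ndufaf5 and Ndufaf3 without VEGF array 1. The replicate block changed no call: 0 members passed in each comparison, and 0 on the VEGF and MCAO arrays alone. The member median in MCAO against sham was -0.30 with quantile normalization, -0.30 in the deposited table and -0.27 with median centring, and in VEGF against sham -0.22 and -0.21 with the first 2 of these. Under quantile normalization and in the deposited table, the VEGF against sham medians were -0.26 and -0.26 for complex I, -0.23 and -0.23 for III, -0.18 and -0.18 for IV, and -0.21 and -0.21 for V, so the direction of IV and V turned. In VEGF against MCAO they were 0.047 and 0.045 for III, 0.081 and 0.081 for IV, and 0.072 and 0.072 for V, and in MCAO against sham -0.28 and -0.27 for V. With array weights, VEGF against sham gave -0.10 for III and -0.092 for IV. Without both arrays complex IV was at -0.060 in VEGF against sham, and median centring gave 0.24 for V in VEGF against MCAO. With 1 array left out, the VEGF against sham median of all members ranged from -0.075 to 0.027, turning above 0 without VEGF array 1 or sham array 2, and those of complexes I to V from -0.10 to 0.018, -0.046 to 0.082, -0.051 to 0.042, -0.060 to 0.086 and -0.019 to 0.10, each across 0. In MCAO against sham, complex IV ranged from -0.25 to -0.12, lowest in size without MCAO array 2, complex II from -0.12 without MCAO array 3 to -0.013 without MCAO array 1, and complex V from -0.19 to -0.091, the last without MCAO array 1. The complex I assembly factors reached -0.26 without sham array 1, and those of complex II -0.27 without MCAO array 1. In VEGF against MCAO, complex V ranged from 0.14 to 0.26, complex I from 0.12 to 0.26 and complex II from 0.039 to 0.22, the assembly factors of complex I from 0.013 to 0.27 and those of complex II from -0.15 without MCAO array 1 to 0.31 without VEGF array 1. Of the values of single named members under these alternatives, 35 passed the test where the reported value did not, and 187 changed sign without passing in either. The causes were not tested. With 3 arrays a group, the median 95% interval of a member reached 0.44 to either side.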
